A study of Mus musculus with 24 samples.

Results

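The experiment compared open chromatin in mouse haematopoietic progenitors that carried a guide RNA against Chd4 with cells that carried the empty guide vector. It comprises 4 of the 24 samples of the series, all those that the labels place in the first of its ATAC-seq sets, with 2 Chd4 gRNA libraries and 2 empty libraries. All 4 came from lineage-negative bone marrow progenitors of C57BL/6 mice with wild-type Utx that also expressed Cas9, so the empty libraries carry the nuclease too. The names of both Chd4 libraries end in guide number 1, so the target and the guide cannot be told apart. Per the labels the cells spent 7 days in semi-solid medium and 5 days in liquid culture, and were taken 6 days after transduction. That protocol text names Brg1 as the edited gene and not Chd4, and the share of edited Chd4 alleles is not given in the sources used here. The labels call the libraries WT1 and WT2 in each group but do not say whether these are separate animals or cultures, so p-values measure only the spread between these libraries.

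CHD4 is an ATP-dependent helicase that moves nucleosomes. It is the motor of the NuRD complex, which joins this activity to the histone deacetylases HDAC1 and HDAC2 through the scaffold MTA proteins, the DNA-binding MBD2 or MBD3, and the GATAD2 proteins that hold CHD4 in place. NuRD is recruited by factors such as FOG1, BCL11A and Ikaros, is known both to silence genes and to shape active enhancers, and is needed for blood stem cell maintenance in mice. ATAC-seq reads mark where the Tn5 transposase can enter chromatin, and a peak is an interval in which such reads pile up.

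The deposited lists held 34429 and 24833 peaks in the Chd4 gRNA libraries, against 48687 and 41480 in the empty libraries. They give only a start and an end for each peak (mm10), with no score, so the depth of each library is unknown and the width of a peak is the only measure of its size. On chromosomes 1 to 19, X and Y the peaks covered 19.7 and 13.2 Mb in the Chd4 gRNA libraries, against 30.1 and 25.2 Mb in the empty libraries. Peaks averaged 29600.5 ± 6793 per Chd4 gRNA library and 45052 ± 5095 per empty library (SD, n = 2 each), a ratio of 0.657, and covered length averaged 16.4 ± 4.61 Mb with the guide and 27.6 ± 3.47 Mb without it, a ratio of 0.595. The groups did not overlap in either measure, but 2 against 2 libraries cannot give a two-sided exact permutation p below 0.333, which is the p of both. Fewer cells of a type and less open chromatin per cell cannot be told apart in such bulk libraries. The Chd4 gRNA replicate 2 list was the shortest of the 4 and was nearly nested in the controls: 98.6% of its peaks met a peak of empty replicate 1, as did 96.0% of those of Chd4 gRNA replicate 1.

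The ratio of guide to empty was lower for distal peaks than for peaks at gene ends. Within 1 kb of either end of a protein-coding gene there were 10747 and 9402 peaks in the Chd4 gRNA libraries, against 11963 and 11303 in the empty libraries, a ratio of means of 0.866. Elsewhere there were 23657 and 15395 peaks with the guide, against 36692 and 30146 with empty vector, a ratio of 0.584. Gene-end peaks thus made up 31.2 and 37.9% of the Chd4 gRNA lists, against 24.6 and 27.3% of the empty lists, again without overlap (exact permutation p = 0.333, the smallest possible). When each list was trimmed to its widest 24797 peaks, the length of the shortest, the shares were 38.7 and 37.9% with the guide, against 38.9 and 38.4% with empty vector, and the direction of the difference turned. Median peak width as deposited was 455 and 441 bp in the Chd4 gRNA libraries, against 471 and 471 bp in the empty libraries. Trimming removes narrow peaks only, and most from the longest lists, so widths at equal length are not compared.

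**Figure D1:**
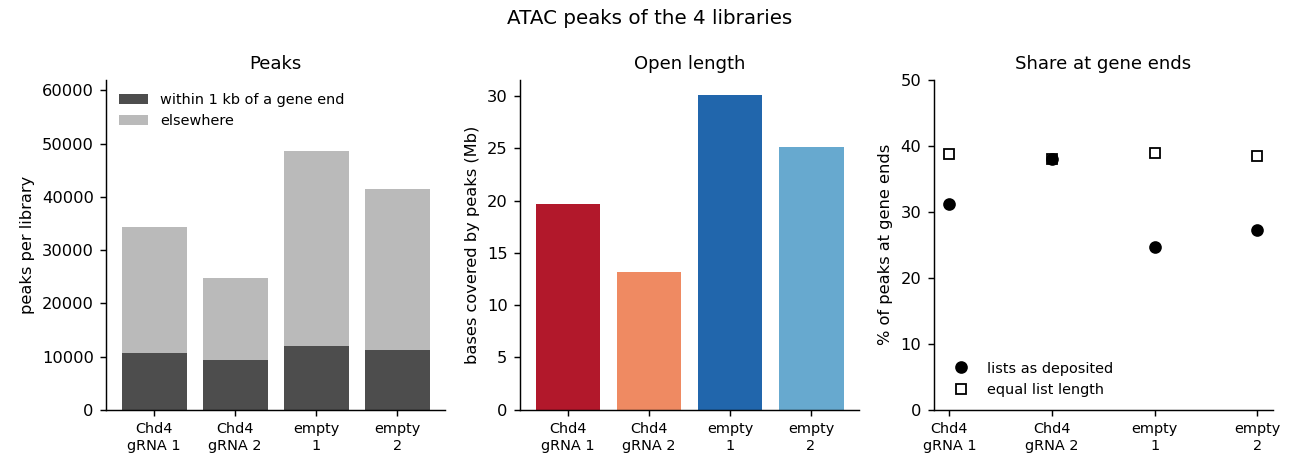
Peaks per library (left, stacked by place), bases covered by peaks in Mb (middle) and percent of peaks within 1 kb of a gene end (right), for the 2 Chd4 gRNA libraries and the 2 empty libraries; there are no error bars because each bar or point is 1 library. Covered length is 19.7 and 13.2 Mb with the guide, against 30.1 and 25.2 Mb without it, while the open squares of the right panel, at 24797 peaks per list, lie between 37.9 and 38.9% in all 4.

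The cells were checked against marker genes at their starts, where a start is open if a peak covers it. All 14 housekeeping genes with a start in the promoter table were open at it in every library. Of 19 neutrophil genes, 13 and 12 starts were open in the Chd4 gRNA libraries, against 17 and 17 in the empty libraries, and of 18 mast cell and basophil genes 14 and 9, against 15 and 14. Starts of 13 neuronal genes and of 8 genes of stroma and endothelium were open in 0 of the 4 libraries, and 1 of 17 erythroid starts was open in each. Of 16 monocyte and macrophage genes 7 and 7 starts were open with the guide, against 9 and 8 with empty vector. The values were 7 and 6, against 10 and 9, of 16 stem cell starts, and 4 and 5, against 6 and 6, of 14 megakaryocyte starts. Of 14 B cell starts 1 and 1 were open, against 2 and 2, and of 16 T and NK cell starts 0 and 0, against 2 and 1. Kit, the stem cell factor receptor of early progenitors, was open at its start in every library. Its peaks covered 4140 and 2072 bp with the guide, against 7346 and 5079 bp with empty vector. The libraries of both groups thus held open granulocyte and mast cell genes, and part of the monocyte, stem cell and megakaryocyte starts were open too. Most erythroid starts were closed in both groups.

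At Chd4 itself (chr6:125095980-125130591) the peaks covered 1962 and 1734 bp in the Chd4 gRNA libraries, against 2616 and 1908 bp in the empty libraries. The 3 regions that both empty libraries held there were all kept, including the region at one end of the gene, chr6:125095451-125096414, with 928 and 821 bp with the guide, against 952 and 735 bp without it. Peak lists do not show edits, so these values check no label. Among the genes of the NuRD complex, 8 of 47 regions held by both empty libraries were lost, which means that neither Chd4 gRNA library had a peak there. This is 17.0%, against a background of 18.8% of all regions, and with each list trimmed to equal length it was 3 of 30 regions, against 5.47% of all regions. Of its 14 genes tested, 10 had less open length in both Chd4 gRNA libraries than in both empty libraries, against 78.2% of all genes.

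The 8 lost regions lay at 5 of the 15 genes. Mta3, one of the MTA scaffolds, lost 3 of 8 regions and had 2632 and 1040 bp open with the guide, against 5580 and 4197 bp with empty vector. Cdk2ap1, a small accessory subunit, lost 2 of 5, with 901 and 0 bp in the Chd4 gRNA libraries, against 2125 and 1395 bp in the empty libraries. Mta1, Mbd2 and the CHD4 paralogue Chd3 lost 1 region each. Regions at the remaining members were not lost: Mbd3, for example, had 1372 and 1344 bp with the guide, against 1406 and 1512 bp without it, and Gatad2b 1011 and 863 bp, against 1053 and 942 bp. The groups overlapped at Gatad2b, and both guide libraries lay below both controls at Mbd3, Mta3 and Cdk2ap1.

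Merging the peaks of the 4 libraries wherever they overlapped gave 52161 regions. Of these, 7138 were lost, 47 were gained (a peak in both Chd4 gRNA libraries and in neither empty library), 22256 were kept in all 4 and 22720 had another pattern. Losses made up 18.8% of the 37981 regions that both empty libraries held, and gains 0.209% of the 22537 that both Chd4 gRNA libraries held. The log2 ratio of lost to gained regions was 7.25. Between single libraries, one of each group, more regions were held only by the empty library in each of the 4 pairings, from 10196 against 2757 (Chd4 gRNA replicate 1 with empty replicate 2) to 24992 against 334 (Chd4 gRNA replicate 2 with empty replicate 1).

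Replicates of one group also differed. Chd4 gRNA replicate 1 held 10689 regions that replicate 2 lacked, against 1117 the other way, and empty replicate 1 held 10331 that replicate 2 lacked, against 2684. After the regions kept in all libraries, the commonest patterns were a peak in empty replicate 1 alone (8413 regions) and a peak in every library but Chd4 gRNA replicate 2 (7847 regions). The reverse of this last pattern, missing only from Chd4 gRNA replicate 1, was found at 740 regions. Shared bases, as the Jaccard index, came to 0.594 between the Chd4 gRNA libraries and 0.705 between the empty ones, and lay between 0.426 and 0.658 across the groups. Without Chd4 gRNA replicate 2 the losses numbered 7878 and the gains 984, and without Chd4 gRNA replicate 1 they numbered 15003 and 230. Without empty replicate 1 there were 9662 and 230, and without empty replicate 2 there were 15677 and 102.

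**Figure D2:**
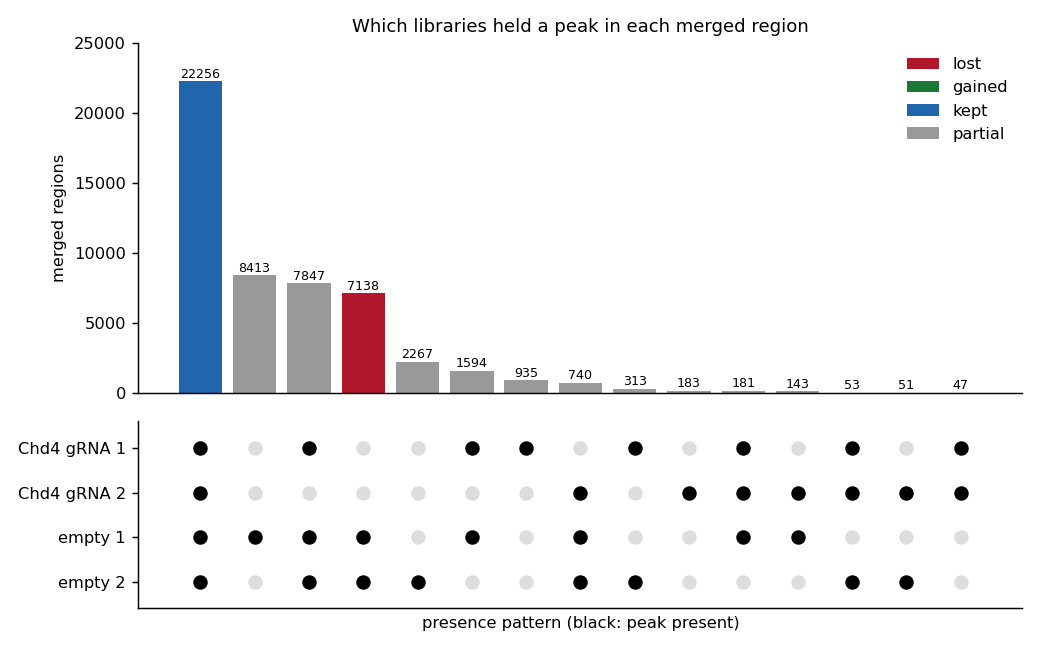
Number of merged regions (bars, linear axis, from 0) for each pattern of presence across the 4 libraries, marked below by black dots. The 22256 kept regions form the tallest bar, 7138 are lost, and the 47 gained regions form the shortest bar, while 7847 are missing from Chd4 gRNA replicate 2 alone.

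The excess of losses over gains depended on list length. With each list trimmed to its widest 24797 peaks, 1168 regions were lost, 5.47% of those held by both empty libraries, and 829 were gained, 4.14% of those held by both Chd4 gRNA libraries. The log2 ratio was then 0.49, and it lay between 0.16 and 0.32 over the 4 single pairings. The replicates of one group differed by 0.15 (Chd4 gRNA) and 0.10 (empty) on the same scale. Lists of equal length draw the counts of each pairing toward balance, and the pairings share libraries, so these ratios do not show an excess of losses beyond that between replicates. Trimming by width keeps peaks above different widths, from 321 and 200 bp in the Chd4 gRNA libraries, against 464 and 403 bp in the empty ones, so a region gained at equal length can have had a narrower peak in the controls.

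Lost regions were narrow and distal. Their median merged width was 375.5 bp, against 350 bp for gained and 819 bp for kept regions, and 9.32% touched a gene end, against 21.3% of gained and 40.6% of kept regions. Kept regions merge peaks of 4 libraries, and the part of merging in these differences was not tested. Within the single empty libraries the median peak width was 771 and 705 bp at kept regions, against 331 and 290 bp at lost regions. Regions held by both empty libraries were split into 5 classes of about equal number by their mean width there, with class 1 the narrowest (up to 340 bp). The share lost was 57.8% in class 1, then 24.9, 8.53, 2.33 and 0.263% in classes 2 to 5. In width class 1 the share lost was 52.7% at gene ends, 58.9% within genes and 57.7% between genes, and in class 4 it was 0.812, 3.50 and 3.18%. Over all widths it was 6.10% at gene ends, 23.4% within genes and 24.5% between genes, so gene ends stood closer to the other places in width class 1 than over all widths. Over the autosomes the share lost ran from 17.2% on chromosome 8 to 21.4% on chromosome 13, and it was 20.3% on X and 0 of 5 regions on Y.

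PU.1 is the ETS factor that directs myeloid fate, and H3K4me1 is a histone mark of enhancers. They were mapped by ChIP-seq in 3 and 2 other Utx wild-type libraries, whose labels name no guide. No days of culture or after transduction are recorded for these ChIP-seq libraries, unlike for the guide and empty libraries compared here. Whether the islands were the same in the cultured and transduced cells was not tested. Islands of PU.1 in all 3 libraries overlapped 63.5% of lost, 48.9% of gained and 88.6% of kept regions, and islands of H3K4me1 in both libraries overlapped 62.8, 44.7 and 79.5%. Away from gene ends, 19.9% of regions with PU.1 were lost, against 37.8% of those with no PU.1 island in any library. The 2 shares were 57.3 and 57.8% in width class 1 and 7.56 and 15.7% in width class 3. For H3K4me1 they were 57.2 and 60.9% in width class 1 and 8.34 and 14.5% in width class 3. The share lost was thus higher without PU.1 or without the mark at middle widths, and nearly the same where peaks were narrowest.

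The second ATAC set, made with an empty vector and a Smarca4 guide, gives 2 further empty libraries of Utx wild-type Cas9 cells. No days of culture or after transduction are recorded for that set, so its culture times cannot be compared with those of the first set. Both of these further empty libraries had a peak at 32.0% of lost regions, 53.2% of gained regions and 82.8% of kept regions, against 61.7% of all regions. Away from gene ends, 12.2% of the regions open in both of these libraries were lost with the Chd4 guide, against 42.1% of those open in neither. That gap stood at each width: 39.6 against 74.6% in width class 1, 14.3 against 39.0% in class 2, 4.24 against 17.2% in class 3, 1.83 against 7.69% in class 4 and 0.301 against 1.64% in class 5. With lists of equal length both of these libraries had a peak at 43.3% of lost, 81.3% of gained and 86.9% of kept regions, against 75.1% of all regions. Many lost regions were therefore open in the empty libraries of their own set and in neither of the other set. At equal length the share of gained regions open in the other set's controls was near that of all regions.

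**Figure D3:**
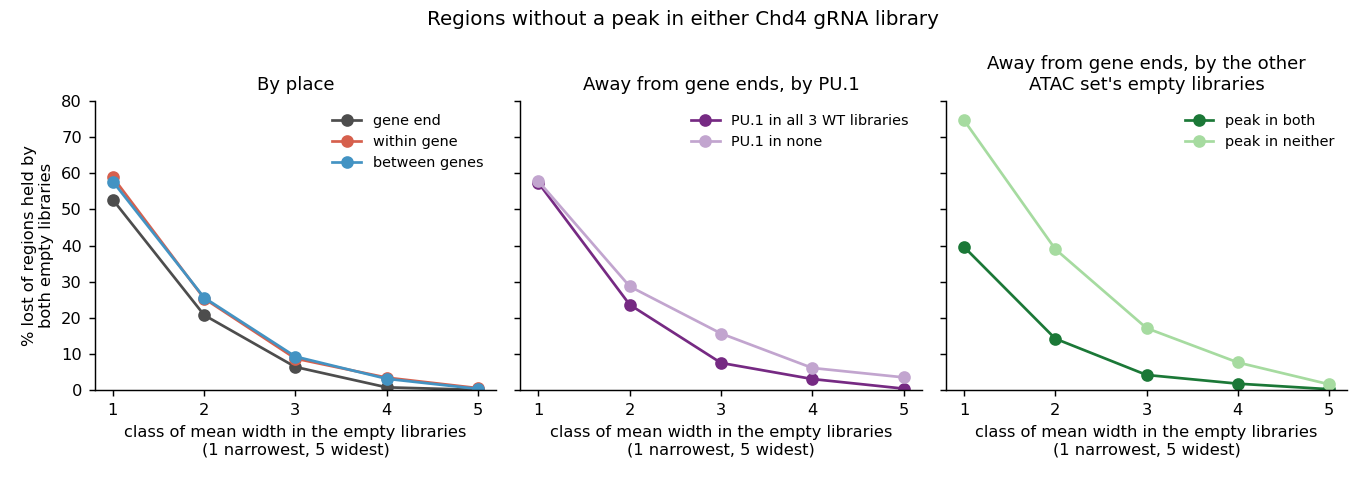
Percent of regions held by both empty libraries that had no peak in either Chd4 gRNA library (linear axis), by class of the region's mean width in the empty libraries. Lines split the regions by place (left), by PU.1 islands in the Utx wild-type libraries (middle) and by peaks in the empty libraries of the second ATAC set (right); the share falls from 57.8% in width class 1 to 0.263% in class 5, and the right panel keeps its lines apart at 39.6 and 74.6% in width class 1.

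The widest lost regions had wide peaks in both controls and no called peak with the guide. Near E2f2, which encodes a cell cycle transcription factor, the region chr4:136172145-136173674 at the gene's end covered 0 bp in both Chd4 gRNA libraries, against 1530 and 985 bp in the empty libraries. Within Tgfbi, an extracellular matrix protein gene, chr13:56634398-56635821 covered 0 bp in both libraries with the guide, against 1277 and 1357 bp in the empty libraries, and it held PU.1 in 3 of 3 libraries and H3K4me1 in both. Within Cotl1, an actin-binding protein gene, chr8:119837530-119838882 covered 0 bp in both libraries with the guide, against 1272 and 1248 bp in the empty libraries. Within Sgpp1, a sphingosine phosphate phosphatase gene, chr12:75733324-75734552 covered 0 bp in both libraries with the guide, against 1200 and 1229 bp in the empty libraries. The widest of all by mean, chr10:36044292-36045794, lay 332401 bp from its nearest gene, Amd2, with 0 bp in both Chd4 gRNA libraries, against 1503 and 1379 bp in the empty libraries. It had no PU.1 or H3K4me1 island and no peak in the second set's empty libraries. The E2f2 and Cotl1 regions had a peak in both of those libraries, the Sgpp1 region in 1 and the Tgfbi region in neither.

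At kept regions peaks were narrower with the guide. Their median width was 606 and 472 bp in the Chd4 gRNA libraries, against 771 and 705 bp in the empty libraries. In 70.5% of the 22256 kept regions both guide libraries were narrower than both controls, and in 0.481% both were wider. The median log2 difference of width, guide minus empty, was −0.41, or 0.753 times the control width, and it was −0.30 and −0.49 in the 2 same-numbered pairs. It was −0.36 at gene ends, −0.45 within genes and −0.44 between genes. With each library's log2 widths centred on its median over kept regions, 16.4% were narrower and 29.1% wider without overlap, so the direction of most single regions was that of the whole library.

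In limma, fitted over all kept regions with Benjamini-Hochberg adjustment, 0% passed an adjusted p of 0.05 in either direction, with 4934 narrower and 10 wider at an unadjusted p under 0.05 and a smallest adjusted p of 0.167. Without Chd4 gRNA replicate 1, 6568 passed as narrower and 3 as wider, with the lone guide library assumed to vary like the controls. After centring, 3 regions passed as narrower (0.0135%) and 0 as wider, with 1316 and 788 at an unadjusted p under 0.05. Each of the 3 had an adjusted p of 0.0449 in limma, and 2 of them are described here. One lay 27682 bp from Egfl7, which encodes a secreted vascular factor and hosts miR-126, a miRNA of stem cells: chr2:26551049-26553401 covered 394 and 314 bp in the Chd4 gRNA libraries, against 1898 and 2285 bp in the empty libraries (centred log2 difference −2.10, SE 0.19). The other, at the end of Spsb4, chr9:97017719-97019249, covered 266 and 200 bp with the guide, against 1279 and 1456 bp with empty vector (centred log2 difference −2.10, SE 0.20). At both, the guide libraries were far narrower than the controls, and both carried PU.1 in 3 of 3 libraries and H3K4me1 in both, while the Egfl7 region had no peak in the second set's empty libraries.

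Among the 5 kept regions that were wider with the guide and had the lowest unadjusted p, the widest was 1809 bp and lay 124821 bp from Tcte2, chr17:13589807-13591615. It covered 1426 and 1809 bp with the guide, against 322 and 860 bp with empty vector (log2 difference 1.61, SE 0.48, limma adjusted p = 0.193). A 380 bp region in Dnmt3a, the de novo DNA methyltransferase, chr12:3897018-3897397, covered 359 and 359 bp with the guide, against 200 and 217 bp with empty vector (log2 difference 0.79, SE 0.20, limma adjusted p = 0.180). A region in Adamts9, a secreted protease gene, covered 452 and 496 bp, against 295 and 240 bp (limma adjusted p = 0.183). None of the 3 passed the threshold, although the groups did not overlap at any of them.

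Gene starts were mostly kept. Among 17492 genes with a start in the promoter table (RefSeq, GRCm38.p6), 8224 and 7502 starts were open in the Chd4 gRNA libraries, against 8748 and 8448 in the empty libraries. Of 8371 open in both empty libraries, 261 were lost (3.12%) and 7424 were kept, and 1 other start was gained. A start counts as lost if no guide library has a peak over it, so its region can still hold a guide peak nearby. In the neutrophil list 4 genes lost their start: Elane and Prtn3, which encode the serine proteases elastase and proteinase 3 of primary granules, Cd177, a neutrophil surface protein, and Padi4, which deiminates histones. These are 4 of the 17 neutrophil starts open in both empty libraries, though at Prtn3 the 5 regions held by both empty libraries were not lost. Elsewhere in the lists the lost starts were those of Erg and Elk3 among 11 ETS factor starts, and of Batf, an AP-1 factor. The starts of Tal1, Zeb2 and Zbtb7a, which are regulators of blood lineages, were also lost. So were those of Il7r, Lyz2, Gp1ba, Prss34 and Nkg7, which mark other blood lineages. At Erg, Elk3, Tal1, Zbtb7a, Lyz2 and Nkg7, as at Prtn3, no start lay in a lost region. No start was lost among 8 NuRD complex starts, 10 of other remodellers or 14 housekeeping starts open in both controls.

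Medians of GC and CpG content were lower in lost than in kept promoters, which are named by the region in which the start lay. Over the 300 bases from 250 before to 50 after a start, GC content had a median of 56.3% in 187 lost promoters, against 62.0% in 9214 kept ones. The median number of CpG dinucleotides was 11 against 23, with ratios of observed to expected CpG of 0.51 and 0.81. The ETS letters CCGGAAG (either strand) were found in 4.28% of lost and 22.2% of kept promoters, against 11.6% of all 21263, and the PU.1-type letters GAGGAAGT, which share GGAAG with them, in 5.88%, 3.25% and 3.13%. With lists of equal length the ETS letters were found in 8.43% of 83 lost and 10.3% of 68 gained promoters. Printed here are 3 of the 6 lost promoters with the widest regions (E2f2; Tet1, which encodes a 5-methylcytosine oxidase; Slc12a4, a potassium-chloride cotransporter gene), chosen to show the range of letters, and the 2 promoters whose start lay in a gained region (Wdr63, a gene of ciliary dynein, and Ccdc89). Capitals mark matches on either strand to these ETS and PU.1-type letters, to AGATAA, bound by GATA factors, to TGTGGT, bound by RUNX factors, to TGANTCA, bound by AP-1, to TTTNGCGC, bound by E2F factors, to TGACGTCA, the cyclic AMP response element, or to CCAAT, bound by NF-Y. A match is a description of the letters only.
E2f2: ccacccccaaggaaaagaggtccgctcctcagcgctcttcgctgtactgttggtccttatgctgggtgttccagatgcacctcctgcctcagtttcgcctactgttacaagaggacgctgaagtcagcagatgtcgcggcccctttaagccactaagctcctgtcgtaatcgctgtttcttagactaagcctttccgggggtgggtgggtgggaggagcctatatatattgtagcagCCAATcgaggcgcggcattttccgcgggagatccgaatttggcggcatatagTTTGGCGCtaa
Tet1: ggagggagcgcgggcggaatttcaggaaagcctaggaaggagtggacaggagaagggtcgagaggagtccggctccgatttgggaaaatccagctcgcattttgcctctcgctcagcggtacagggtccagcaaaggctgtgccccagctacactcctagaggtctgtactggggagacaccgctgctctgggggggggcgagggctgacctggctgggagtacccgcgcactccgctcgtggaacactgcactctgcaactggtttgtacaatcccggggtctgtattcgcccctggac
Slc12a4: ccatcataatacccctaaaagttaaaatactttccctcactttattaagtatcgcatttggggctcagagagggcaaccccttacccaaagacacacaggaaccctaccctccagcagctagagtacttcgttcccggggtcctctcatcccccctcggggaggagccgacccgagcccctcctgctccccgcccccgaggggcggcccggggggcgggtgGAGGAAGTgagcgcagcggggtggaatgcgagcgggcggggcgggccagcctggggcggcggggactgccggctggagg
Wdr63: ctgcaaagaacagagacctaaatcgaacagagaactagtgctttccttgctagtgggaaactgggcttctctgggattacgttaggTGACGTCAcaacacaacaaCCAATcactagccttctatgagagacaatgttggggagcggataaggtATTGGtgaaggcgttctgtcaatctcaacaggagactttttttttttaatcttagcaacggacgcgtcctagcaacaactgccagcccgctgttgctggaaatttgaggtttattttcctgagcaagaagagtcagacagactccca
Ccdc89: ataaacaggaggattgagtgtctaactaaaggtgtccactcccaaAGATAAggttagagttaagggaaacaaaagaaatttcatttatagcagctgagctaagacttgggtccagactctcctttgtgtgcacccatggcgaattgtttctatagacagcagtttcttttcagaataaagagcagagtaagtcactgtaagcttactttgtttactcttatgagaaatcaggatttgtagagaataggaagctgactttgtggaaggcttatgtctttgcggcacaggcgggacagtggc

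The E2f2 promoter, chr4:136172024-136172323 on the plus strand, holds 18 CpG, 1 CCAAT match and 1 E2F match. The E2F letters occur in 1.74% of all promoters and the CCAAT letters in 38.2%. The Tet1 promoter, chr10:62887275-62887574 on the minus strand, holds 17 CpG and none of these letters; its region covered 0 bp in both guide libraries, against 1521 and 784 bp in the empty libraries. The Slc12a4 promoter, chr8:105966066-105966365 on the minus strand, holds 20 CpG and 1 match to the PU.1-type letters, and its region covered 0 bp in both guide libraries, against 1033 and 850 bp in the empty libraries. The Wdr63 promoter, chr3:146107987-146108286 on the minus strand, holds 9 CpG, 1 match to the cyclic AMP response element and 2 CCAAT matches; its region covered 830 and 240 bp in the Chd4 gRNA libraries and 0 bp in the empty ones. The Ccdc89 promoter, chr7:90426062-90426361 on the plus strand, holds 3 CpG and 1 match to AGATAA, with 499 and 222 bp with the guide and 0 bp without it. A peak covered the Wdr63 start in both guide libraries but the Ccdc89 start in Chd4 gRNA replicate 1 only, so only Wdr63 counts as a gained start. The region of each printed promoter had a peak in both empty libraries of the second ATAC set.

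Open length per gene was the sum of covered bases over the regions nearest to that gene. Both guide libraries were below both controls at 78.2% (10523) of the 13457 genes tested and above them at 0.305%; after centring on library medians these shares were 29% and 24.8%. The median log2 fold change of open length, on the log2(bases + 100) scale, was −0.65. In limma 0% of genes passed an adjusted p of 0.05 in either direction, with 3527 lower and 10 higher at an unadjusted p under 0.05, and 0 passed after centring, with 1624 lower and 299 higher at an unadjusted p under 0.05. Without Chd4 gRNA replicate 1, 7657 genes passed as lower and 3 as higher under the same assumption. Lost regions were found at 4574 genes, 585 with 3 or more and 112 with 5 or more, and gained ones at 46.

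The genes with the most lost regions had 12 to 30 regions in both controls. Nedd9, which encodes a scaffold of integrin signalling, lost 13 of 25 regions held by both empty libraries and had 8179 and 5436 bp open with the guide, against 15130 and 13985 bp with empty vector (log2 fold change −1.11, SE 0.36, limma adjusted p = 0.175). Ptpre, a receptor tyrosine phosphatase gene, lost 12 of 29, with 14046 and 10059 bp, against 23975 and 20422 bp. St3gal1, a sialyltransferase gene, lost 10 of 29, with 11266 and 8602 bp, against 20981 and 18064 bp. Of all regions held by both empty libraries 18.8% were lost. At each of these genes both Chd4 gRNA libraries lay below both controls, as at 78.2% of all genes, while 10 to 16 regions were kept. These genes, and Etv6, Pde4d, Pik3r1, Atxn1 and Sox6 below, were picked for their number of lost regions. Their lower open length with the guide follows in part from that choice and is no separate support. With lists of equal length Nedd9 lost 0 of 10 and gained 1, Ptpre lost 2 of 15 and St3gal1 lost 1 of 14.

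Etv6, Pde4d, Pik3r1 and Atxn1 followed with 8 or 9 lost regions each. Etv6 encodes an ETS family repressor that translocations disrupt in human leukaemia. It lost 9 of 30 and gained 1, with 13639 and 7925 bp open with the guide, against 24228 and 20391 bp with empty vector. Pde4d, a cyclic AMP phosphodiesterase gene, lost 9 of 30, Pik3r1, the regulatory subunit gene of PI3 kinase, 9 of 25, and Atxn1, a corepressor gene, 8 of 23. With lists of equal length Etv6 lost 4 of 18, Pde4d 3 of 14, Pik3r1 2 of 12 and Atxn1 0 of 8, and Etv6 then had the most lost regions of all genes.

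At Sox6 nearly all regions were lost. Sox6 encodes an HMG-box factor that represses embryonic globin together with Bcl11a. Of 12 regions held by both empty libraries near Sox6 (chr7:115470872-116040776), 11 were lost and 0 were kept. Open length was 1050 and 0 bp in the Chd4 gRNA libraries, against 4937 and 4583 bp in the empty libraries (log2 fold change −3.84, SE 1.25, limma adjusted p = 0.178). The lost regions were narrow, 200 to 492 bp in the empty libraries, and 9 of the 11 lay within the gene. PU.1 islands of all 3 libraries overlapped 6 of them and H3K4me1 islands of both overlapped 8, and 8 had no peak in either empty library of the second ATAC set. At equal list length both empty libraries held 1 Sox6 region and 0 were lost. Bcl11a, a NuRD-recruiting zinc finger gene, lost 8 of 17, with 4016 and 2210 bp with the guide, against 10135 and 8760 bp with empty vector, and 1 at equal length.

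At 9 genes all of the 3 or more regions held by both empty libraries were lost, and this group was singled out after its values were seen. Ocm, the oncomodulin gene, was listed at 0 in both guide libraries and had 1250 and 1327 bp in the empty libraries, which shared 4 regions there. Camk4, a calmodulin-dependent kinase gene, was also listed at 0 with the guide and had 1324 and 1221 bp in the empty libraries. Aff2, Coro6, Nkain2, Rgsl1 and Tas2r134 were also listed at 0 with the guide, and Igf1, the insulin-like growth factor gene, had 575 and 0 bp, against 1674 and 1026 bp. Amd2, a gene of polyamine synthesis, and Qprt, a gene of NAD synthesis, were also listed at 0 with the guide, with 1503 and 1379 bp at Amd2 and 1279 and 1123 bp at Qprt in the empty libraries. The limma adjusted p was 0.127 for Ocm, Camk4, Amd2 and Qprt alike. Sox4, a stem and progenitor HMG-box factor gene, kept some of its peaks, with 1575 and 1098 bp with the guide, against 5359 and 4308 bp with empty vector (centred log2 fold change −1.20, SE 0.15, limma adjusted p = 0.190).

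Gains were few. Of the 46 genes with a gained region only Ugt1a1, the bilirubin glucuronosyltransferase gene, had 2, with 803 and 2745 bp in the Chd4 gRNA libraries, and it was listed at 0 in both empty libraries (limma adjusted p = 0.127). The wider one, chr1:88220381-88221654, lay 379 bp from the gene's end and covered 271 and 1274 bp with the guide; it was open in 1 empty library of the second set. Within Nav1, a microtubule-associated protein gene, chr1:135633465-135634150 covered 583 and 522 bp with the guide and 0 bp with empty vector. Ranbp3l, with 362 and 467 bp, Cfap69, a sperm flagellum gene, with 346 and 385 bp, and Tcaf2, with 238 and 379 bp, were likewise listed at 0 in the empty libraries. The regions at Nav1 and at the second Ugt1a1 site were open in both empty libraries of the second set.

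**Figure D4:**
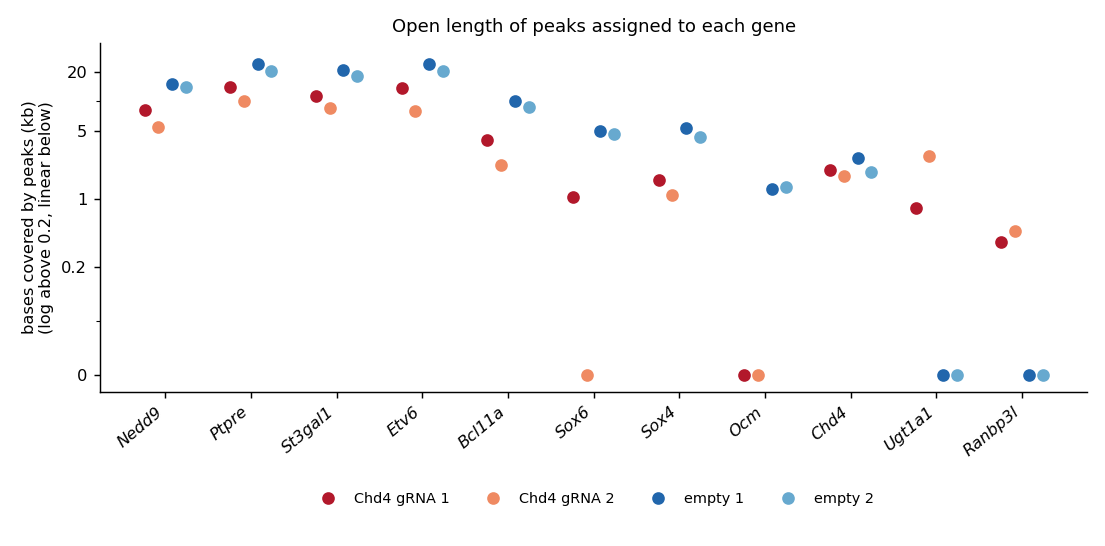
Bases covered by peaks assigned to 11 genes in each library, in kb (log axis above 0.2 kb, linear below it); each point is 1 library, with the Chd4 gRNA libraries in red and the empty libraries in blue, and the genes were picked to show the range described. Sox6 has 1050 and 0 bp with the guide, against 4937 and 4583 bp without it, Ocm is listed at 0 in both guide libraries, the groups overlap at Chd4 (1962 and 1734 bp with the guide, against 2616 and 1908 bp without it), and Ugt1a1 and Ranbp3l are listed at 0 in both empty libraries.

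Across 22 gene lists the share of regions lost ranged from 8.89% to 43.1%, around the 18.8% of all regions. It was highest for erythroid genes, 22 of 51 (43.1%), of which 11 were at Sox6 and 8 at Bcl11a, genes of 2 repressors of embryonic and fetal globin. Gata1 and Klf1, the erythroid master regulators, lost 0 of 2 and 0 of 1, with 971 and 654 bp at Gata1 with the guide, against 1031 and 1161 bp without it. It was lowest for housekeeping genes, 4 of 45 (8.89%), whose regions were the widest, with a median width of 831 bp in the empty libraries, against 389 bp for erythroid genes and 532.5 bp for all. Peak width thus differed between the lists at both extremes, and its part in their order was not tested. At equal list length erythroid genes stood at 5.88% and housekeeping genes at 2.70%, against 5.47% of all regions.

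Factors that recruit NuRD lost 29 of 108 regions (26.9%), against 18.8% of all regions. The lost regions lay at 9 genes. Most of them were at Bcl11a, at Zeb2, a zinc finger repressor gene, with 5 of 26, and at Ikzf2, an Ikaros family gene, with 4 of 16. Ikzf2 had 7071 and 2720 bp open with the guide, against 10798 and 8205 bp with empty vector. Of 11 genes of this list tested, 10 had less open length in both guide libraries than in both controls, against 78.2% of all genes, and 6 of 11 after centring, against 29%. Zfpm1, which encodes FOG1, lost 2 of 7. The median width of the list's regions in the empty libraries was 451 bp, against 532.5 bp for all, and the part of width was not tested. At equal list length the list lost 4 of 49 (8.16%), against 5.47% of all regions, and gained 2 of 52 (3.85%), against 4.14%. Bcl11a then lost 1 of 5, Ikzf2 1 of 8 and Zeb2 0 of 10.

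The ETS factor genes lost 34 of 158 regions (21.5%) and the genes of GATA factors and their partners 13 of 113 (11.5%), against 18.8% of all regions. Within the ETS list the losses were led by Etv6 with 9, Ets1 with 7 of 21 and Fli1 with 5 of 16, whereas Spi1, which encodes PU.1, lost 0 of 7. Ets1 had 6658 and 3766 bp open with the guide, against 13494 and 11334 bp with empty vector, and Spi1 had 6385 and 4810 bp, against 10091 and 8566 bp. In the GATA list Gata2, a stem and mast cell regulator, lost 1 of 7, with 3479 and 1617 bp, against 9537 and 5980 bp, and Lmo2, a bridging partner, lost 3 of 7. Runx1 lost 1 of 39, with 22766 and 14903 bp, against 30338 and 26814 bp. Less open length in both guide libraries than in both controls was found at 15 of 16 ETS genes and 12 of 14 GATA list genes, against 78.2% of all genes, and in limma 0 passed the threshold. At equal list length 9 of 96 ETS list regions were lost and 0 of 74 gained, against 2 of 63 lost and 1 of 59 gained for the GATA list. Of all regions 5.47% were lost and 4.14% gained at that length.

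Genes of mature myeloid cells lost 18 of 82 regions (neutrophil, 22.0%) and 28 of 109 (monocyte and macrophage, 25.7%), against 18.8% of all regions. At equal list length they lost 4 of 53 (7.55%) and 5 of 58 (8.62%), against 5.47% of all regions. They then gained 0 of 38 and 0 of 48, against 4.14%. All 21 neutrophil genes tested had less open length in both guide libraries than in both controls, against 78.2% of all genes. Mpo, the myeloperoxidase gene, had 807 and 942 bp with the guide, against 4288 and 2451 bp with empty vector (log2 fold change −1.78, SE 0.33, limma adjusted p = 0.127). Ctsg, the cathepsin G gene, had 1679 and 572 bp, against 4626 and 3480 bp, and Elane was listed at 0 in both guide libraries, with 333 and 445 bp in the controls. Ly86, which encodes a partner of a Toll-like receptor relative, lost 7 of 17, and Itgam, the CD11b gene, 4 of 9. After centring, 14 of 21 neutrophil and 11 of 21 monocyte genes were lower without overlap, against 29% of all genes, and 1 and 2 were higher, against 24.8%.

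Stem cell genes lost 23 of 147 regions (15.6%) and mast cell and basophil genes 18 of 105 (17.1%), against 18.8% of all regions. Erg, an ETS factor of stem cells, lost 3 of 24, with 11726 and 7131 bp with the guide, against 21022 and 18360 bp with empty vector, and Meis1, a HOX cofactor, 3 of 13. Megakaryocyte genes lost 24 of 96 (25%), led by Thbs1, the thrombospondin gene, with 6 of 19. Next come genes of lymphoid, stromal, muscle and neuronal cells, again beside 18.8% of all regions. T and NK cell genes lost 10 of 34 (29.4%), B cell genes 3 of 17 (17.6%) and stroma and endothelium genes 8 of 47 (17.0%). Striated muscle genes lost 6 of 21 (28.6%) and neuronal genes 11 of 32 (34.4%). Of the remaining lists, other remodellers lost 18 of 87 (20.7%), and cell cycle and tumour suppression genes 32 of 145 (22.1%). AP-1 and early response genes lost 15 of 92 (16.3%), and C/EBP, IRF and KLF factors 20 of 122 (16.4%). Cytokine and signalling inhibitors lost 15 of 128 (11.7%) and interferon response genes 3 of 18 (16.7%). In none of the lists did a gene pass the limma threshold, whether as deposited or centred.

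**Figure D5:**
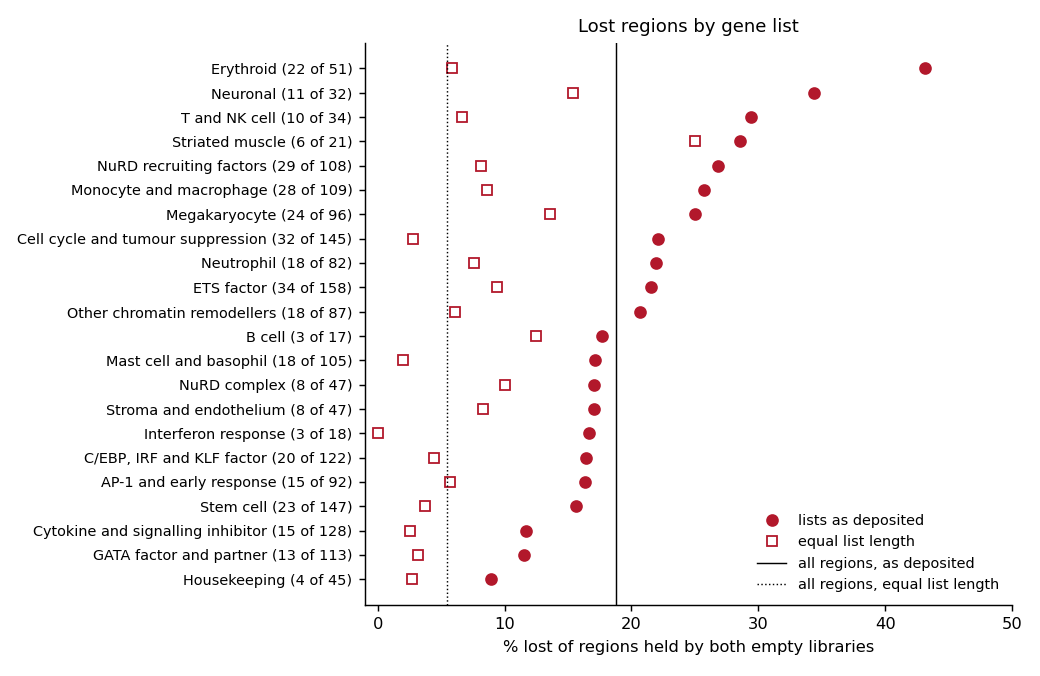
Percent of regions held by both empty libraries that were lost, for 22 gene lists (lost and held numbers beside each name), with the lists as deposited (filled) and at equal list length (open). Vertical lines mark all regions, 18.8% as deposited and 5.47% at equal length; erythroid genes are farthest right at 43.1% as deposited and stand at 5.88% at equal length.

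The Smarca4 guide, against the gene of the SWI/SNF motor Brg1, was tested in the second ATAC set in Utx wild-type cells with its own 2 empty libraries. Peak numbers with the Chd4 guide were 0.707 and 0.598 times those of the same-numbered empty library, and with the Smarca4 guide 0.826 and 0.907 times. The 2 guides did not overlap in this ratio, and the exact permutation p of its log2 value was 0.333, the smallest that 2 against 2 allow. The Smarca4 comparison gave 3562 lost, 528 gained and 35331 kept regions. Guide and set cannot be told apart, since no guide was used in both sets. The names of both Smarca4 libraries end in guide number 2, so that target and its guide cannot be told apart either.

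A share of the regions lost with the Chd4 guide was also lost with the Smarca4 guide. Of 2284 such regions open in both empty libraries of the second set, 179 had no peak in either Smarca4 gRNA library (7.84%), against 191 of 18432 kept regions (1.04%) and a background of 2.16% of the 25962 regions held by all 4 empty libraries. Those 179 were 31.9% of the 561 lost with the Smarca4 guide among regions held by all 4. The background of this reverse share is 2284 of 25962, the regions held by all 4 that were lost with the Chd4 guide. At equal list length the reverse share was 28 of 187 (15.0%), against 506 of 17436. By width, the share lost with the Smarca4 guide was 8.11% of lost and 3.91% of kept regions in width class 1. It was 7.50 and 1.83% in class 2, 7.87 and 1.87% in class 3 and 6.67 and 0.939% in class 4, and 0 of 12 and 0.260% in class 5. With equal lists it was 28 of 506 (5.53%), against 119 of 15452 kept regions (0.770%). The share was higher for lost than for kept regions in width classes 1 to 4. No test was made, since regions of the same libraries are not replicates.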

How the data were processed

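Peak intervals as deposited by the authors hold a start and an end in bp; Bowtie, MACS2 and the build mm10 are named in the submitters' processing notes, without versions, thresholds or depth. PU.1 and H3K4me1 islands were used by position only. Peaks on chromosomes 1 to 19, X and Y were merged where they overlapped or touched. Each region went to the closest of 21779 protein-coding gene spans (RefSeq, GRCm38.p6), and a gene end is within 1 kb of either end. The exact permutation tests of library values are two-sided. Covered bases of kept regions (log2) and of genes (log2 of bases + 100, for genes with a peak in 2 or more libraries) were fitted with limma 3.58.1 in R 4.3.3, adjusted by Benjamini-Hochberg. The limma step was tested on simulated data. Of 399 list entries 397 matched, 377 of them distinct genes, and 19 genes are in more than 1 list. Named genes were the NuRD members, the 8 genes with most lost or gained regions, the 5 regions or genes with the largest change and up to 3 genes per list; other names were chosen after their values were seen. The members and lists were chosen with earlier results of these data known. Promoter letters come from 21263 RefSeq starts; other starts are not analysed here. Other steps ran in Python 3.11.15 (pandas 2.3.3, scipy 1.17.1, numpy 2.4.6). Some results covered by the naming rule are not reported here.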

Additional observations from a re-analysis of the deposited data

How the results depend on the processing

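Of the settings tried, autosomes only, merging within 200 bp and 50% cover of a region (9239 lost and 51 gained) kept every count of lost and gained regions within 1.5 times. Equal list length gave 1168 lost and 829 gained regions and a log2 ratio of 0.49, and turned the difference in the share of peaks at gene ends to −0.339 percentage points. The upper 50% of each list gave 3311 lost and 6 gained. Leaving out each library in turn gave 7878 to 15677 lost and 102 to 984 gained regions, with log2 ratios of 3.0 to 7.26. It gave 0 to 6568 narrower and 0 to 3 wider kept regions, and 0 to 7657 genes with less and 0 to 3 with more open length; the non-zero counts came without Chd4 gRNA replicate 1, where the lone guide library is assumed to vary like the controls. Centring gave 3 narrower kept regions. The replicate numbers pair libraries by number only (correlation of deviations 0.045 for regions and 0.193 for genes). Read as a replicate block, the pairs gave 16434 and 17565 lost and 1348 and 554 gained regions, with log2 ratios of 3.61 and 4.99. The same block in limma gave 0 narrower and 0 wider regions (6582 and 9 at an unadjusted p under 0.05) and 0 genes with less or more open length (6068 and 12), and with centring, chosen after seeing the data, 73 narrower and 1 wider region. Overlap with Smarca4 losses was 5.53% at equal length and 6.10% at 50% cover. An island in any library held 78.7 and 94.6% (PU.1) and 78.9 and 93.7% (H3K4me1) of lost and kept regions; at equal length lost, gained and kept regions stood at 74.1, 68.3 and 91.8% (PU.1) and 76.8, 65.0 and 81.7% (H3K4me1). Without depth or scores, a missing peak cannot be told from one below the caller's threshold.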
